A study of Saccharomyces cerevisiae with 8 samples.

Results

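The set described here is the heat shock chaperone system of yeast cytosol and mitochondria, 35 genes chosen by name from the known Hsp70, Hsp110, Hsp40, Hsp90, small heat shock and Hsp100 families and their partners. The choice was made with earlier results of these data known, so that shares set against all genes only describe. A gene was taken where the annotation of the array gave its symbol to a probe, which held for 33 of the 35 genes among 6226 genes in all. The other 2, APJ1 and HSP31, were not analysed here. Of the 33 genes, 24 act in the cytosol, 7 in mitochondria, 1 (HSP30) at the plasma membrane, and 1 (HSF1) encodes the heat shock transcription factor. Each was read by 1 probe.

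Total RNA of BY4741 yeast colonies on solid medium was hybridized on 8 one-colour Agilent arrays, 2 for each of 4 groups. WTD20 yeast expressed the plant defensin AhPDF1.1b and grew with 20 mM ZnSO4. WT20 yeast grew on the same zinc medium without the defensin. WTD0 yeast expressed AhPDF1.1b on control medium, and WT0 yeast was the wild type on control medium. Every group had the BY4741 background (MATa his3Δ1 leu2Δ0 met15Δ0 ura3Δ0) and carried the empty pFL38H vector with its HIS3 marker. AhPDF1.1b was expressed from plasmid pYX212 under the triose phosphate isomerase promoter, and the labels name no vector in its place in the yeast without the defensin. Colonies of all groups were collected at the same diameter, not after the same time. Each group was 1 yeast with 1 construct, and nothing in the labels says that its 2 arrays came from separate cultures, so that p-values measure only the spread between these arrays.

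Hsp70 proteins bind unfolded stretches of other proteins and release them in a cycle driven by ATP. Hsp40 (J) proteins start that cycle, and nucleotide exchange factors such as the Hsp110 proteins reset it. Hsp90 takes over clients from Hsp70 with the help of cofactors that bridge, activate or slow it. Small heat shock proteins hold unfolded proteins in loose assemblies, and the Hsp100 disaggregases pull proteins out of aggregates. In yeast many of these genes come as pairs of a constitutive and a heat-inducible copy, and Hsf1 drives much of their transcription in heat, with the general stress factors Msn2 and Msn4 acting on part of them.

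All values are log2 array signals as deposited, so that 1 unit is a 2-fold difference. Array medians lay between 8.455 and 8.465, and replicate arrays correlated at r of 0.996 to 0.998 across genes. LEU2 and MET17, deleted in this strain, read 5.54 to 5.79 on all arrays, and no chaperone gene had a mean at or under that level. Genes of the a mating type read 7.14 to 11.10, and the alpha-cell genes STE3, MF(ALPHA)1 and MF(ALPHA)2 read 5.66 to 8.41. Both WTD20 arrays, 1 WTD0 array and 1 WT0 array shared a slide (the array ID of the labels), and both WT20 arrays shared the other slide with the remaining control arrays. The difference between WTD20 and WT20 can therefore not be read within a slide. Between slides, 0 of 6226 genes passed in limma (104 at an unadjusted p under 0.05), and no chaperone gene had an unadjusted p under 0.05. Only the control arrays, 1 WTD0 and 1 WT0 array on each slide, inform this test. It could thus miss offsets between slides, and does not show that the slides were alike. The probes of SSA1 and SSA2, SSB1 and SSB2, and HSP82 and HSC82 read near-identical genes. Probe sequences were not used here, so that cross-hybridization between these copies cannot be told apart from their own signal.

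Zinc moved most of the chaperone genes in both yeasts, and the majority rose. In AhPDF1.1b yeast (WTD20 against WTD0), 21 of 33 rose, 6 fell and 6 did not pass, where 21.8% of all genes rose and 24.0% fell. In WT yeast (WT20 against WT0), 20 rose, 6 fell and 7 did not pass, where 27.8% of all genes rose and 31.5% fell. Their median log2 fold change came to 0.39 (AhPDF1.1b yeast) and 0.30 (WT yeast), where all genes together had medians of -0.01 and -0.03. In both yeasts 17 of the 33 genes rose, and 5 fell in both (SSA3, SSB1, SSB2, HSP12 and MGE1). The share of all genes that did so in both yeasts is not given here, so these joint counts only describe. The HSP30 gene fell in AhPDF1.1b yeast and rose in WT yeast.

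**Figure D1:**
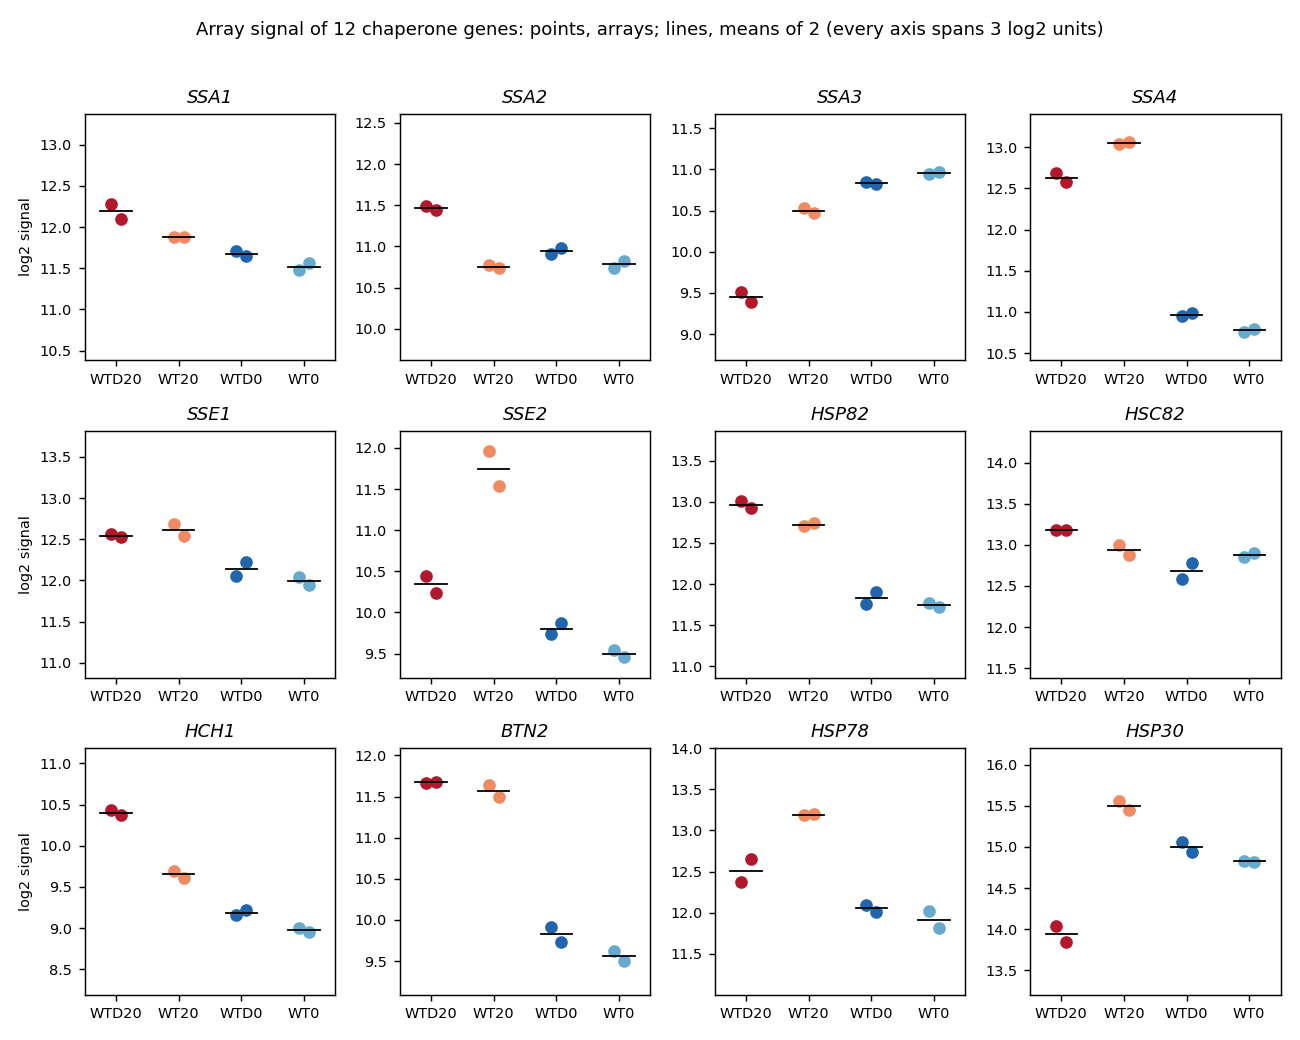
Log2 array signal (vertical axes, each spanning 3 log2 units) of 12 chaperone genes in the groups WTD20, WT20, WTD0 and WT0, with points for the 2 arrays of a group and a line for their mean. SSA4, HSP82 and BTN2 are high on all 4 zinc arrays, SSE2 and HSP78 are highest in WT20, and SSA3 and HSP30 are lowest in WTD20.

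Among the Hsp70 genes, the heat-inducible SSA4 (YER103W) had the largest change. It read 12.68 and 12.58 in WTD20 yeast and 13.04 and 13.06 in WT20 yeast, against 10.95 and 10.98 in WTD0 yeast and 10.76 and 10.80 in WT0 yeast. All 4 zinc arrays stood above all 4 control arrays. With zinc it was 3.17-fold higher in AhPDF1.1b yeast (log2 1.67 ± 0.07 SE, adjusted p = 3.40e-08, limma) and 4.83-fold higher in WT yeast (log2 2.27 ± 0.07 SE, adjusted p = 1.36e-09).

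SSA3 (YBL075C), the other inducible SSA gene, went the other way. It read 9.51 and 9.39 in WTD20 yeast and 10.53 and 10.47 in WT20 yeast, against 10.85 and 10.82 in WTD0 yeast and 10.94 and 10.97 in WT0 yeast. The groups did not overlap, with WTD20 lowest. With zinc SSA3 was 2.61-fold lower in AhPDF1.1b yeast (log2 -1.39 ± 0.07 SE, adjusted p = 1.51e-07) and 1.37-fold lower in WT yeast (log2 -0.46 ± 0.07 SE, adjusted p = 1.89e-04).

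The constitutive SSA1 (YAL005C) and SSA2 (YLL024C) moved less. SSA1 read 12.28 and 12.10 in WTD20 yeast and 11.89 and 11.88 in WT20 yeast, against 11.71 and 11.65 in WTD0 yeast and 11.48 and 11.56 in WT0 yeast. It rose with zinc in AhPDF1.1b yeast (log2 0.51) and in WT yeast (log2 0.36). SSA2 read 11.49 and 11.45 in WTD20 yeast, above the 6 other arrays, which lay between 10.74 and 10.98. It rose with zinc in AhPDF1.1b yeast (log2 0.52 ± 0.07 SE, adjusted p = 1.23e-04) and had a log2 fold change of -0.03 in WT yeast (adjusted p = 0.73), with a 95% confidence interval of -0.18 to 0.12.

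SSB1 (YDL229W) and SSB2 (YNL209W) encode the Hsp70 that sits on ribosomes beside the growing chain. SSB1 read 10.94 and 10.92 in WTD20 yeast and 10.89 and 10.91 in WT20 yeast, against 11.84 and 11.41 in WTD0 yeast and 11.67 and 11.66 in WT0 yeast. Both genes fell with zinc, SSB1 by log2 fold changes of -0.70 and -0.77 in AhPDF1.1b and WT yeast, and SSB2 of -0.43 and -0.70.

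The Hsp110 genes SSE1 (YPL106C) and SSE2 (YBR169C) encode exchange factors for the SSA and SSB proteins. SSE2 read 10.45 and 10.24 in WTD20 yeast and 11.96 and 11.54 in WT20 yeast, against 9.74 and 9.87 in WTD0 yeast and 9.54 and 9.46 in WT0 yeast. WT20 stood above all other arrays, and WTD20 above the controls. With zinc SSE2 was 1.45-fold higher in AhPDF1.1b yeast (log2 0.54 ± 0.13 SE, adjusted p = 0.00529) and 4.75-fold higher in WT yeast (log2 2.25 ± 0.13 SE, adjusted p = 1.45e-07). SSE1 rose by log2 0.40 in AhPDF1.1b yeast and by log2 0.62 in WT yeast.

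Of the Hsp40 genes, SIS1 (YNL007C), which serves the SSA proteins and is essential, rose with zinc in AhPDF1.1b yeast (log2 0.33) and in WT yeast (log2 0.25). Both SIS1 calls ended when single arrays were left out, with an adjusted p of up to 0.0737 in AhPDF1.1b yeast (without WTD20 replicate 2 or WTD0 replicate 2) and up to 0.225 in WT yeast (without WT20 replicate 1 or WT0 replicate 2). YDJ1 (YNL064C), the major cytosolic J protein, read 12.63 and 12.57 in WTD20 yeast, against a range of 12.01 to 12.33 on the 6 other arrays. It rose with zinc in AhPDF1.1b yeast (log2 0.33 ± 0.07 SE, adjusted p = 0.00276) and had a log2 fold change of 0.09 in WT yeast (adjusted p = 0.31). The difference between these zinc effects did not pass (log2 0.25, adjusted p = 0.078, limma).

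HSP82 (YPL240C), the heat-inducible Hsp90, read 13.01 and 12.92 in WTD20 yeast and 12.70 and 12.75 in WT20 yeast, against 11.76 and 11.90 in WTD0 yeast and 11.77 and 11.72 in WT0 yeast. The zinc arrays lay above all control arrays. HSP82 was 2.19-fold higher with zinc in AhPDF1.1b yeast (log2 1.13 ± 0.07 SE, adjusted p = 9.19e-07) and 1.97-fold higher in WT yeast (log2 0.98 ± 0.07 SE, adjusted p = 1.18e-06). Its constitutive copy HSC82 (YMR186W) read 13.18 and 13.18 in WTD20 yeast and 13.00 and 12.88 in WT20 yeast, against 12.59 and 12.78 in WTD0 yeast and 12.85 and 12.91 in WT0 yeast. HSC82 rose with zinc in AhPDF1.1b yeast (log2 0.49, adjusted p = 6.43e-04) and had a log2 fold change of 0.06 in WT yeast (adjusted p = 0.54), where the groups overlapped.

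Of the 7 Hsp90 cofactor genes, 4 rose in AhPDF1.1b yeast and none fell, where 21.8% of all genes rose and 24.0% fell. In WT yeast 4 rose and SBA1 fell, where 27.8% of all genes rose and 31.5% fell. HCH1 (YNL281W), which stimulates the ATPase of Hsp90, read 10.43 and 10.37 in WTD20 yeast and 9.70 and 9.61 in WT20 yeast, against 9.16 and 9.21 in WTD0 yeast and 8.998 and 8.95 in WT0 yeast. The 4 groups did not overlap. It was 2.32-fold higher with zinc in AhPDF1.1b yeast (log2 1.21 ± 0.07 SE, adjusted p = 3.12e-07) and 1.60-fold higher in WT yeast (log2 0.68 ± 0.07 SE, adjusted p = 1.01e-05).

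The related activator AHA1 (YDR214W) read 11.44 and 11.37 in WTD20 yeast and 10.77 and 10.81 in WT20 yeast, against 11.21 and 11.23 in WTD0 yeast and 10.85 and 10.94 in WT0 yeast. For AHA1, both AhPDF1.1b groups thus lay above both WT groups. With zinc it had log2 fold changes of 0.19 in AhPDF1.1b yeast (adjusted p = 0.0428) and -0.11 in WT yeast (adjusted p = 0.19). The first call ended without any 1 of the 8 arrays, with an adjusted p of up to 0.195.

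STI1 (YOR027W) bridges Hsp70 and Hsp90, and it rose by log2 0.53 in AhPDF1.1b yeast and by log2 0.34 in WT yeast. CPR6 (YLR216C) and CPR7 (YJR032W) are cyclophilins that bind Hsp90. CPR6 rose by log2 0.54 in AhPDF1.1b yeast and 0.92 in WT yeast, while CPR7 had 0.14 in AhPDF1.1b yeast (adjusted p = 0.10) and rose by 0.30 in WT yeast. For CPR7 the effect in AhPDF1.1b yeast minus that in WT yeast did not pass (log2 -0.16, adjusted p = 0.20, limma). SBA1 (YKL117W), the p23 cochaperone that slows the ATPase of Hsp90, read 12.30 and 12.34 in WTD20 yeast and 11.93 and 11.94 in WT20 yeast, against 12.20 and 12.34 in WTD0 yeast and 12.45 and 12.47 in WT0 yeast. It had a log2 fold change of 0.05 in AhPDF1.1b yeast (adjusted p = 0.60) and fell by 0.52 on the log2 scale in WT yeast (adjusted p = 8.77e-05). CDC37 (YDR168W), which delivers kinases to Hsp90, passed in neither yeast, with log2 fold changes of 0.13 in AhPDF1.1b yeast and 0.04 in WT yeast.

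**Figure D2:**
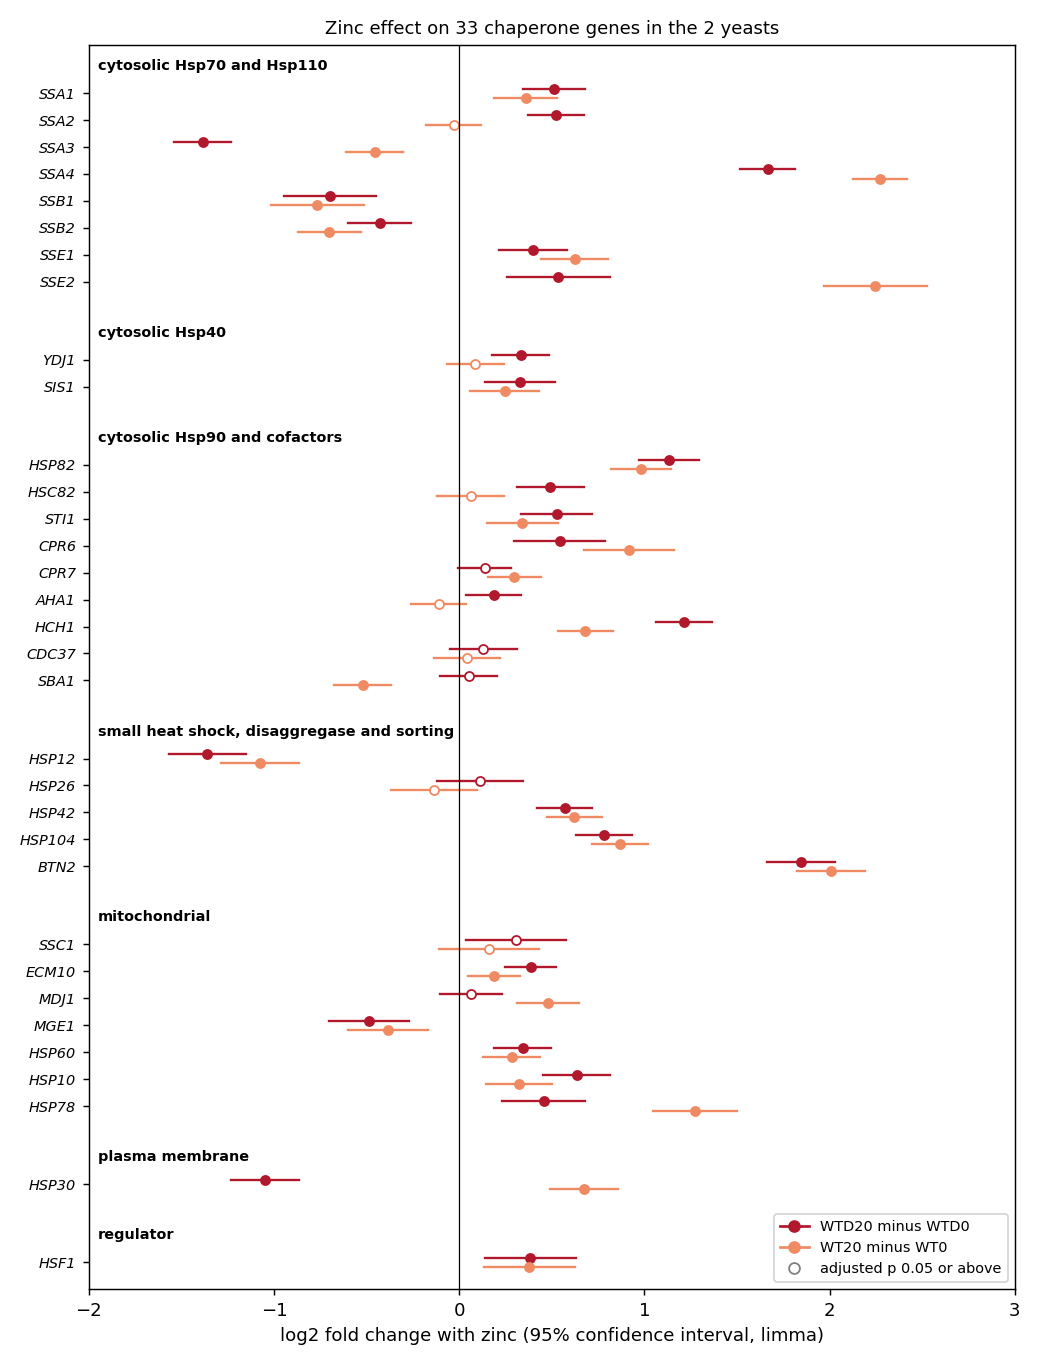
Log2 fold change with zinc (horizontal axis, points with 95% confidence intervals from limma) of 33 chaperone genes, grouped by class, in AhPDF1.1b yeast (dark red, WTD20 minus WTD0) and WT yeast (orange, WT20 minus WT0), with open points where the adjusted p was 0.05 or above. SSA4 and BTN2 lie far to the right in both yeasts, SSE2 at 0.54 in AhPDF1.1b yeast and 2.25 in WT yeast, and HSP30 lies on opposite sides of 0.

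BTN2 (YGR142W), which sorts misfolded proteins into deposits, rose in both yeasts. It read 11.66 and 11.68 in WTD20 yeast and 11.64 and 11.50 in WT20 yeast, against 9.91 and 9.74 in WTD0 yeast and 9.62 and 9.50 in WT0 yeast. With zinc it was 3.60-fold higher in AhPDF1.1b yeast (log2 1.85 ± 0.08 SE, adjusted p = 7.60e-08) and 4.02-fold higher in WT yeast (log2 2.01 ± 0.08 SE, adjusted p = 1.56e-08). HSP104 (YLL026W), the cytosolic disaggregase, rose by log2 0.78 in AhPDF1.1b yeast and 0.87 in WT yeast. HSP42 (YDR171W), a small heat shock protein that gathers misfolded proteins, rose by log2 0.57 and 0.62 in these yeasts.

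The other genes of this class did not follow. HSP12 (YFL014W), a small membrane-associated stress protein, read 12.30 and 12.40 in WTD20 yeast and 12.59 and 12.38 in WT20 yeast, against 13.79 and 13.64 in WTD0 yeast and 13.65 and 13.47 in WT0 yeast. All 4 zinc arrays lay below all 4 control arrays. It fell by 1.36 on the log2 scale in AhPDF1.1b yeast (adjusted p = 1.51e-06) and by 1.08 in WT yeast (adjusted p = 3.95e-06). HSP26 (YBR072W), the small heat shock protein that forms large oligomers, read 14.32 to 14.66 over all 8 arrays and passed in neither yeast, with log2 fold changes of 0.11 in AhPDF1.1b yeast and -0.14 in WT yeast.

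In mitochondria, 4 of 7 genes rose and 1 fell in AhPDF1.1b yeast, where 21.8% of all genes rose and 24.0% fell. In WT yeast 5 of the 7 rose and 1 fell, where 27.8% of all genes rose and 31.5% fell. HSP78 (YDR258C), the mitochondrial disaggregase, read 12.37 and 12.65 in WTD20 yeast and 13.19 and 13.19 in WT20 yeast, against 12.10 and 12.01 in WTD0 yeast and 12.03 and 11.81 in WT0 yeast. With zinc it was 1.37-fold higher in AhPDF1.1b yeast (log2 0.46 ± 0.10 SE, adjusted p = 0.00391) and 2.42-fold higher in WT yeast (log2 1.27 ± 0.10 SE, adjusted p = 1.82e-06). Its cytosolic counterpart HSP104 had fold changes of 1.72 and 1.82 in these yeasts.

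HSP60 (YLR259C) and HSP10 (YOR020C) are the barrel and the lid of the mitochondrial chaperonin. HSP60 rose by log2 0.34 in AhPDF1.1b yeast and 0.28 in WT yeast. HSP10 read 11.00 and 11.02 in WTD20 yeast and 10.68 and 10.72 in WT20 yeast, against 10.26 and 10.49 in WTD0 yeast and 10.40 and 10.35 in WT0 yeast, with log2 fold changes of 0.63 and 0.33.

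SSC1 (YJR045C), the main mitochondrial Hsp70, passed in neither yeast, with log2 fold changes of 0.31 in AhPDF1.1b yeast (adjusted p = 0.061) and 0.16 in WT yeast (adjusted p = 0.28). Its paralogue ECM10 (YEL030W), which read 7.25 to 7.77 over the 8 arrays, rose by log2 0.39 in AhPDF1.1b yeast and 0.19 in WT yeast, and the second call ended without any 1 of the 4 arrays compared (adjusted p up to 0.11). MDJ1 (YFL016C), the J protein of SSC1, had a log2 fold change of 0.06 in AhPDF1.1b yeast (adjusted p = 0.53) and rose by log2 0.48 in WT yeast. MGE1 (YOR232W), the nucleotide exchange factor of SSC1, read 8.56 and 8.78 in WTD20 yeast and 9.03 and 8.88 in WT20 yeast, against 9.21 and 9.10 in WTD0 yeast and 9.43 and 9.25 in WT0 yeast. It fell in both yeasts, by 0.49 and 0.38 on the log2 scale, and the second call ended without WT20 replicate 2 or WT0 replicate 1 (adjusted p up to 0.0587).

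HSP30 (YCR021C) encodes a plasma membrane protein that restrains the proton pump Pma1. It read 14.04 and 13.85 in WTD20 yeast and 15.56 and 15.45 in WT20 yeast, against 15.05 and 14.94 in WTD0 yeast and 14.83 and 14.82 in WT0 yeast. WT20 was above and WTD20 below all 4 control arrays. With zinc HSP30 was 2.07-fold lower in AhPDF1.1b yeast (log2 -1.05 ± 0.08 SE, adjusted p = 4.02e-06) and 1.60-fold higher in WT yeast (log2 0.68 ± 0.08 SE, adjusted p = 4.48e-05). On WT20 replicate 1 the probe was tied with others, 6 probes in all, at the highest value of that array, so that its level there is only a lower bound. Without that array the rise in WT yeast was log2 0.62 (adjusted p = 8.13e-04). No other chaperone gene reached the highest value of any array.

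HSF1 (YGL073W) rose with zinc by log2 0.39 in AhPDF1.1b yeast and 0.38 in WT yeast. It read 9.49 and 9.30 in WTD20 yeast and 9.0003 and 9.28 in WT20 yeast, against 8.93 and 9.09 in WTD0 yeast and 8.66 and 8.87 in WT0 yeast. The replicates of HSF1 spread widely, and its calls ended without WTD20 replicate 1 or WTD0 replicate 1 (adjusted p up to 0.118) and without WT20 replicate 2 or WT0 replicate 1 (adjusted p up to 0.126).

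On control medium few differences passed the test. Comparing WTD0 with WT0 yeast, 1 of 33 genes rose and 0 fell, where 3.00% of all genes rose and 2.65% fell. At an unadjusted p under 0.05, 10 of 33 chaperone genes were higher and 2 lower in WTD0 than in WT0 yeast. Of all 6226 genes, 670 (10.8%) were higher and 604 (9.70%) lower. Both WTD0 arrays lay above both WT0 arrays for 18 of the 33 chaperone genes and below them for 5. The same held for 1498 (24.1%) and 1520 (24.4%) of all 6226 genes. The 1 gene that passed was AHA1 (log2 0.32 ± 0.07 SE, adjusted p = 0.0200), and its call ended without any 1 of the 4 arrays compared (adjusted p up to 0.199). Within the slides its difference was 0.38 and 0.27. The log2 fold changes of all 33 genes lay between -0.19 and 0.32 with a median of 0.14, against -0.0019 over all genes, and the median was 0.11 within slide 1 and 0.13 within slide 2.

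Under zinc more of the genes differed between these yeasts. Comparing WTD20 with WT20 yeast, 14 chaperone genes rose, 7 fell and 12 did not pass, where 26.8% of all genes rose and 22.0% fell. The share of chaperone genes that rose was 42.4%, and the share that fell, 21.2%, was near that of all genes. Those that rose included 3 of 8 Hsp70 and Hsp110 genes (SSA1, SSA2 and SSB2), both Hsp40 genes, and 6 of 9 genes of Hsp90 and its cofactors. HCH1 was 1.68-fold higher (log2 0.75 ± 0.07 SE, adjusted p = 1.19e-05), SSA2 1.64-fold (log2 0.72 ± 0.07 SE, adjusted p = 1.44e-05), and AHA1 1.54-fold (log2 0.62 ± 0.07 SE, adjusted p = 3.73e-05). YDJ1 was higher by log2 0.50, STI1 and SBA1 by 0.38 each, SSC1 by 0.40, and ECM10 by 0.32.

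The 7 that fell included 5 that zinc had raised in WT yeast. Both comparisons use the WT20 arrays, with opposite sign, and 20 of all 33 chaperone genes rose with zinc in WT yeast. This overlap therefore only describes. HSP30 was 2.94-fold lower in WTD20 than in WT20 yeast (log2 -1.55 ± 0.08 SE, adjusted p = 2.88e-07), SSE2 2.65-fold lower (log2 -1.41 ± 0.13 SE, adjusted p = 1.05e-05), HSP78 1.60-fold lower (log2 -0.68 ± 0.10 SE, adjusted p = 3.32e-04) and SSA4 1.34-fold lower (log2 -0.42 ± 0.07 SE, adjusted p = 5.02e-04). SSA3, which zinc had lowered in both yeasts, was 2.07-fold lower in WTD20 than in WT20 yeast (log2 -1.05 ± 0.07 SE, adjusted p = 1.22e-06). MGE1 and MDJ1 were lower by small amounts, with log2 fold changes of -0.28 and -0.24. BTN2, HSP104 and HSP42, raised by zinc in both yeasts, did not pass between WTD20 and WT20 yeast, with 95% confidence intervals of -0.08 to 0.29, -0.29 to 0.02 and -0.28 to 0.01.

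These groups lay on different slides. When slide entered as a block, so that only the control arrays gave the offset between slides, 7 genes were called higher in place of 14. Of the 21 calls, 11 held under that fit and every other alternative listed under the processing, 6 of them higher (SSA2, YDJ1, AHA1, HCH1, SBA1 and ECM10) and 5 lower (SSA3, SSA4, SSE2, HSP78 and HSP30). The calls of SSA1, SSB2, SIS1, HSP82, HSC82, STI1, SSC1, HSP10, MDJ1 and MGE1 did not. The share of all genes called with slide as a block is not given here. The shares of chaperone genes and of all genes above describe only the fit without slide.

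**Figure D3:**
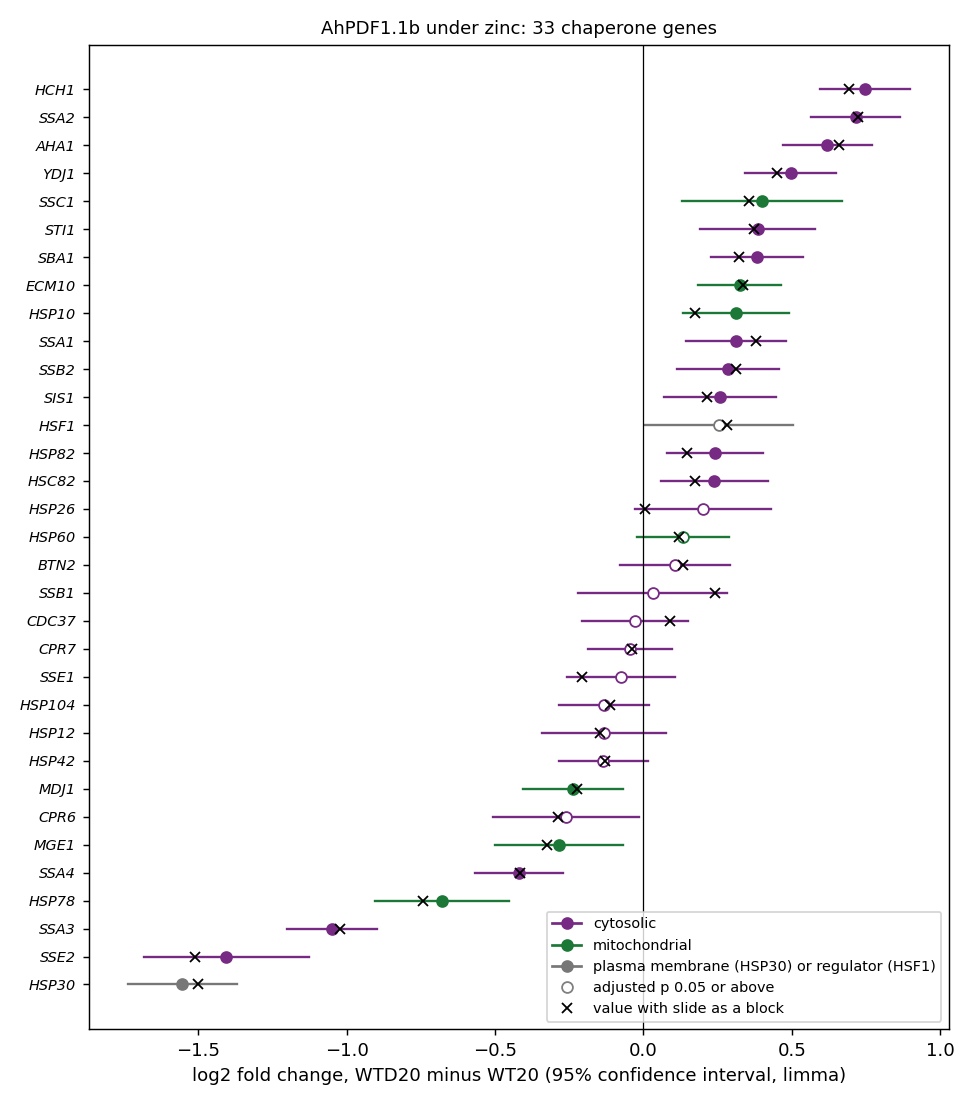
Log2 fold change of AhPDF1.1b yeast against WT yeast, both under zinc (horizontal axis, WTD20 minus WT20, 95% confidence intervals from limma), for 33 chaperone genes, coloured by compartment, with open points where the adjusted p was 0.05 or above and crosses for the value with slide as a block. HCH1, SSA2 and AHA1 lead on the right, and HSP30, SSE2 and SSA3 lie furthest to the left.

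The difference of the zinc effects itself (the effect in AhPDF1.1b yeast minus that in WT yeast) passed for 11 of 33 genes, 5 with a positive and 6 with a negative value, where 17.7% and 16.0% of all genes did so. These shares of the chaperone genes, 15.2% and 18.2%, were near those of all genes, so that the set as a whole did not stand out in this comparison, and the values below describe single genes. The negative differences were those of HSP30 (-1.72 ± 0.12 SE, adjusted p = 3.53e-06), SSE2 (-1.71 ± 0.18 SE, adjusted p = 5.98e-05), SSA3 (-0.93 ± 0.10 SE, adjusted p = 6.34e-05), HSP78 (-0.82 ± 0.14 SE, adjusted p = 0.00166), SSA4 (-0.61 ± 0.09 SE, adjusted p = 7.85e-04) and MDJ1 (-0.42 ± 0.11 SE, adjusted p = 0.0131). The positive ones were those of SBA1 (0.57 ± 0.10 SE, adjusted p = 0.00157), SSA2 (0.55 ± 0.10 SE, adjusted p = 0.00149), HCH1 (0.53 ± 0.10 SE, adjusted p = 0.00195), HSC82 (0.43 ± 0.11 SE, adjusted p = 0.0152) and AHA1 (0.30 ± 0.09 SE, adjusted p = 0.0344). SSA4, SSE2 and HSP78 rose with zinc in both yeasts, less so in AhPDF1.1b yeast, and HCH1 rose in both, more so in AhPDF1.1b yeast. With slide as a block the calls of HSC82 (0.36, adjusted p = 0.12), AHA1 (0.33, adjusted p = 0.094) and MDJ1 (-0.40, adjusted p = 0.077) ended.

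Each zinc effect could also be read within a slide, WTD20 against 1 WTD0 array on slide 1 and WT20 against 1 WT0 array on slide 2. HSP30 then had -0.99 in AhPDF1.1b yeast and 0.68 in WT yeast, SSE2 0.47 and 2.29, HSP78 0.50 and 1.38, SSA3 -1.37 and -0.47, SSA4 1.65 and 2.26, and SSA2 0.49 and -0.07. These values reuse both zinc arrays and 1 of the 2 control arrays behind the values above, and are no independent check.

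Within an array, the signal of an inducible gene was set against that of its constitutive paralogue, and the change of this difference followed between groups. This leaves out any shift that all probes of an array share, and is given relative to the mean of WT0 yeast. Against SSA2, SSA4 stood at 1.20 and 1.14 in WTD20 yeast and 2.28 and 2.33 in WT20 yeast, against 0.04 and 0.01 in WTD0 yeast. SSA4 thus gained on SSA2 by log2 1.14 with zinc in AhPDF1.1b yeast and by 2.30 in WT yeast. Against SSA1 the gains of SSA4 were 1.15 and 1.91.

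SSE2 against SSE1 stood at 0.38 and 0.21 in WTD20 yeast and 1.76 and 1.49 in WT20 yeast, against 0.18 and 0.14 in WTD0 yeast. With zinc it moved by 0.14 in AhPDF1.1b yeast and by 1.62 in WT yeast, with SDs between replicates of 0.12 in WTD20, 0.19 in WT20, 0.03 in WTD0 and 0.0097 in WT0 yeast. HSP82 against HSC82 stood at 0.96 and 0.88 in WTD20 yeast and at 0.83 and 1.00 in WT20 yeast, and these ranges overlapped. In WTD0 yeast it stood at 0.30 and 0.26. CPR6 against CPR7 stood at 0.22 and 0.59 in WTD20 yeast and at 0.68 and 0.56 in WT20 yeast, which also overlapped. With zinc this pair moved by 0.41 in AhPDF1.1b yeast and by 0.62 in WT yeast, with SDs between replicates of 0.26 in WTD20 and 0.09 in WT20 yeast.

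SSA3 lost against both constitutive copies. Against SSA1 it stood at -2.21 and -2.15 in WTD20 yeast and -0.79 and -0.84 in WT20 yeast, against -0.29 and -0.27 in WTD0 yeast. The inducible paralogues were thus not moved as one group. SSA4, HSP82 and CPR6 gained with zinc in both yeasts, SSE2 gained beyond the replicate spread in WT yeast, and SSA3 lost in both. With 2 arrays in a group, an exact two-sided permutation test of any such change cannot go below p = 0.3333, and none was called.

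**Figure D4:**
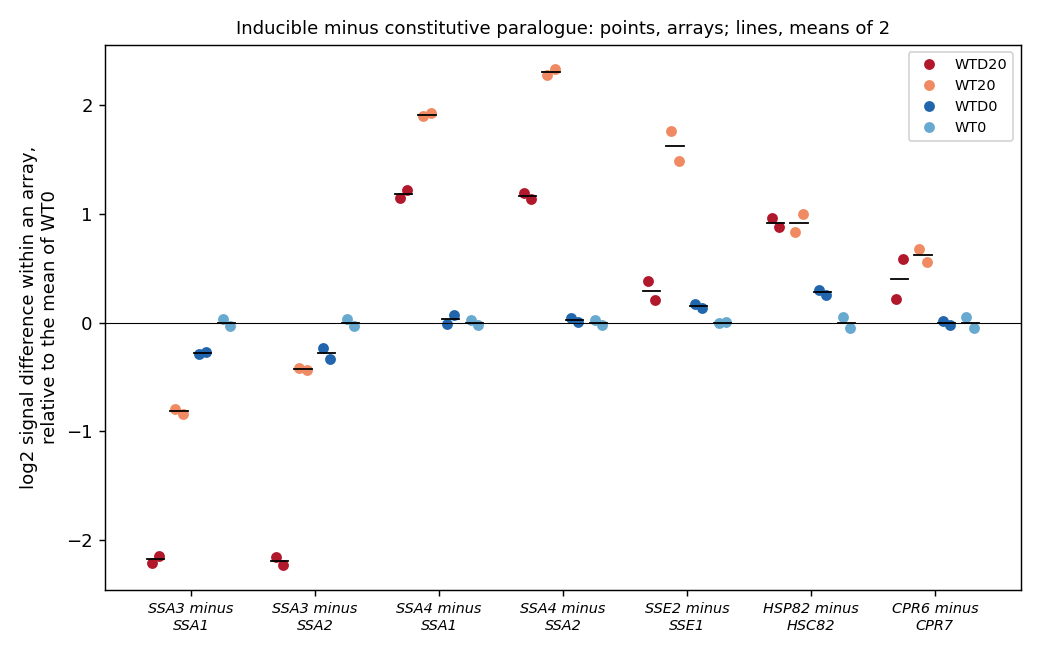
Log2 signal of the inducible gene minus that of its constitutive paralogue within each array, relative to the mean of WT0 (vertical axis), for 7 pairs in WTD20, WT20, WTD0 and WT0 (points, arrays; lines, means of 2). SSA4 minus SSA2 is 2.28 and 2.33 in WT20 and 1.20 and 1.14 in WTD20, SSA3 falls below 0 in WTD20, WT20 and WTD0, and HSP82 minus HSC82 overlaps between WTD20 and WT20.

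The cytosolic and the mitochondrial genes had similar medians, which lay furthest apart with zinc in AhPDF1.1b yeast. Of 24 cytosolic genes, 16 rose and 4 fell with zinc in AhPDF1.1b yeast (median log2 fold change 0.45), and 13 rose and 5 fell in WT yeast (median 0.27). The 7 mitochondrial genes had medians of 0.34 and 0.28 in the same comparisons. With zinc, 21.8% of all genes rose and 24.0% fell in AhPDF1.1b yeast, and 27.8% and 31.5% in WT yeast. Between WTD20 and WT20 yeast the cytosolic median was 0.15, with 11 genes higher (45.8%) and 3 lower (12.5%). The mitochondrial median was 0.13, with 3 genes higher (42.9%) and 3 lower (42.9%). Of all genes, 26.8% were higher and 22.0% lower. The range in the cytosol was -1.39 to 1.85 with zinc in AhPDF1.1b yeast and -1.08 to 2.27 in WT yeast. In mitochondria it was -0.49 to 0.63 and -0.38 to 1.27. A range grows with the number of genes, here 24 against 7, so that these ranges do not compare the spread of the compartments. No test was run on these medians. With single arrays left out, the sign of their difference turned for zinc in WT yeast and for WTD20 against WT20 yeast (-0.115 to 0.131). For zinc in AhPDF1.1b yeast the cytosolic median stayed higher, by 0.053 to 0.104.

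Set against WT0 yeast, WTD20 yeast had 24 chaperone genes higher (72.7%), 6 lower (18.2%) and 3 that did not pass (CDC37, SBA1 and HSP26). Of all genes, 24.6% rose and 27.1% fell. This comparison shares its arrays with those above. HCH1 had a log2 fold change of 1.43, BTN2 of 2.11, SSA4 of 1.85, SSA3 of -1.51 and HSP30 of -0.88 in it.

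Other lists are read against the same shares of all genes, 21.8% rising and 24.0% falling with zinc in AhPDF1.1b yeast, and 27.8% and 31.5% in WT yeast. No difference between lists was tested, and the lists were chosen with earlier results of these data known. The cytosolic chaperonin CCT and its partner prefoldin fold actin and tubulin, and of their 14 genes 9 fell with zinc in AhPDF1.1b yeast (median -0.22) and 8 in WT yeast (median -0.25), while none rose in either. PAC10 (-0.64 and -0.67), TCP1 (-0.77 and -0.57) and CCT4 (-0.51 and -0.73) were among those that fell in both. Of 17 further cytosolic Hsp70 and Hsp90 cofactors listed, only 10 were measured. Of these 10, 1 rose and 5 fell in AhPDF1.1b yeast, and 2 rose and 5 fell in WT yeast. The falls included CPR1, a cyclophilin (-0.42 and -0.99), and SNL1, a ribosome-associated exchange factor (-0.63 and -0.88).

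Of 15 measured genes (17 listed) of the mitochondrial import motor, folding and proteolysis, 4 rose and 3 fell in AhPDF1.1b yeast. In WT yeast 5 rose and 3 fell. These shares, 26.7% and 20% in AhPDF1.1b yeast and 33.3% and 20% in WT yeast, were not far from those of all genes. Among the genes that rose, SSQ1, the Hsp70 of iron-sulfur cluster assembly, had log2 fold changes of 0.99 and 1.02, and YME1, an inner membrane protease, of 0.65 and 1.17. Of 23 measured targets (24 listed) of Msn2 and Msn4 outside the chaperone set, 10 rose and 4 fell in AhPDF1.1b yeast (median 0.19). In WT yeast 7 of these targets rose and 12 fell (median -0.21). Their zinc effects differed between the yeasts for 16 of 23 genes, 13 with a positive and 3 with a negative value (56.5% and 13% of the list, where 17.7% and 16.0% of all genes did so). The 3 with the smallest p were YGP1 (-2.23), SPI1 (-1.56) and CTT1 (1.40), of which CTT1 encodes cytosolic catalase. On control medium, 9 of the 23 targets (39.1%) were lower in WTD0 than in WT0 yeast and 0 higher, where 2.65% of all genes were lower. A lower WTD0 level adds to a positive difference of zinc effects. In WTD20 against WT0 yeast, 3 of the 23 rose and 10 fell (13% and 43.5%), where 24.6% and 27.1% of all genes did so.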

How the data were processed

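The authors deposited 1 log2 value per probe and array for 6227 probes, normalized before deposit, as the near-equal medians show. R 2.14.2 and limma appear in the processing notes of the submitters. The sources used here do not give the background correction or the normalization method. Depth does not apply to arrays, whose number (2 for each group) limits the precision. Probes were named from the platform annotation (4061 with 1 symbol, 2166 with none, 125 older symbols updated through the RefSeq gene table of assembly R64), and the 2 probes of 1 gene were averaged, which left 6226 genes. Locus tags come from that table, and no coordinates or sequences are given. All 8 arrays were fitted with 4 group means in limma 3.58.1 (R 4.3.3), with 4 residual and 6.36 prior degrees of freedom and Benjamini-Hochberg adjustment over 6226 genes in each comparison, at a threshold of 0.05. Errors are standard errors of the fit unless called SD. The steps were tested on simulated arrays with independent noise, no slide effect and changes set in WTD20 only. That simulation does not bear on the offset between slides. All 33 measured genes of the set are named whatever their values, and of other lists up to 3 genes with the smallest p in a comparison, each with its value in the other yeast. The members and lists were chosen with earlier results of these data known. Alternatives were quantile normalization, median centring, leaving out the dimmest 25% of genes or each array, a trend with robust moderation, array weights, only the arrays compared, and slide or replicate number as a block. Promoter motifs were not analysed here.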

Additional observations from a re-analysis of the deposited data

Results flagged for a closer look

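The zinc effect (log2, AhPDF1.1b yeast minus WT yeast) differed between the yeasts by the interaction term of limma for 11 of 33 chaperone genes, 15.2% with a positive and 18.2% with a negative value, which is near the 17.7% and 16.0% of all genes. The values were -1.72 for HSP30, -1.71 for SSE2, -0.93 for SSA3, -0.82 for HSP78, -0.61 for SSA4, -0.42 for MDJ1, 0.30 for AHA1, 0.43 for HSC82, 0.53 for HCH1, 0.55 for SSA2 and 0.57 for SBA1. Of these, 8 passed in every alternative set out for the processing (HSP30, SSE2, SSA3, HSP78, SSA4, HCH1, SSA2 and SBA1). HSP30 on WT20 replicate 1 was at the highest value of that array, and without that array its difference was -1.67 (adjusted p = 3.92e-05). Whether a sample stands far from the others of its group was not tested, since each group held 2 arrays.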

How the results depend on the processing

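No chaperone gene that passed turned its direction under any alternative. With slide as a block, 7 genes rose between WTD20 and WT20 yeast in place of 14, 3 interaction values were positive in place of 5, the interaction median was 0.0452 in place of 0.07, and with zinc in AhPDF1.1b yeast the median was 0.336 and the cytosolic minus mitochondrial median 0.0598 in place of 0.10. Under quantile normalization this last difference was 0.0724 and that of the interaction -0.0054 in place of 0.03. The cause was not tested. The shares of all genes called with slide as a block are not given here, so that these counts have no background.

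Leaving out each array in turn gave these lowest and highest values. The median over members was 0.294 to 0.348 for zinc in WT yeast, 0.32 to 0.414 for zinc in AhPDF1.1b yeast, 0.0864 to 0.145 for AhPDF1.1b on control medium, 0.115 to 0.141 for AhPDF1.1b under zinc, 0.48 to 0.522 for WTD20 against WT0 and 0.0154 to 0.124 for the interaction. The cytosolic minus mitochondrial median was -0.103 to 0.0807 for zinc in WT yeast, 0.053 to 0.104 for zinc in AhPDF1.1b yeast, -0.0108 to 0.034 for AhPDF1.1b on control medium, -0.115 to 0.131 for AhPDF1.1b under zinc, 0.0162 to 0.113 for WTD20 against WT0 and -0.0526 to 0.105 for the interaction. Members that rose numbered 0 to 1 between WTD0 and WT0 yeast, 9 to 15 between WTD20 and WT20 yeast (9 without WTD20 replicate 1) and positive interaction values 3 to 7 (3 without WT20 replicate 2 or WT0 replicate 2). Between WTD20 and WT20 yeast, 1 array or more ended the calls of SSA1, SSB2, HSP82, HSC82, SSC1, SIS1, MDJ1, MGE1 and HSP10, with highest adjusted p of 0.0647, 0.104, 0.114, 0.191, 0.147, 0.188, 0.217, 0.246 and 0.0517.

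Replicate numbers 1 and 2 are only shared numbers. The deviations of same-numbered arrays correlated between -0.534 and 0.536 over the pairs of groups. With the replicate block, AHA1 no longer passed for zinc in AhPDF1.1b yeast (0.19, adjusted p = 0.063) or for the interaction (0.30, adjusted p = 0.053), and no other call of a chaperone gene changed. With the numbers of WTD20 crossed, an alternative chosen after seeing the data, 0 calls were lost and 1, 2 and 4 were gained for zinc in AhPDF1.1b yeast, AhPDF1.1b under zinc and the interaction.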
